A study of Mus musculus with 8 samples.

Results

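The response to low oxygen of fibroblasts labelled miR-210 KO was described from 4 RNA-sequencing libraries. In 2 of them the cells had been kept for 24 hours at 21% oxygen (normoxia, labelled NX) and in 2 for 24 hours at 1% oxygen (hypoxia, labelled HX). Fibroblasts are the connective-tissue cells that make the dermal matrix, and these came from mouse skin and were immortalised, that is, adapted to continuous growth in culture. The KO cells were derived from C57BL/6 mice whose genotype is given as mir210lox/lox. A stretch of DNA between lox sites is removed where the recombinase Cre acts. No Cre line, promoter or treatment is named, and KO is used here as the submitters' name of the group. The other 4 of the 8 libraries are C57BL/6 wild-type (WT) fibroblasts, also immortalised and from skin, 2 at 21% and 2 at 1% oxygen for 24 hours. They enter through the filter on low values, the shared estimate of spread and the comparison of the responses between genotypes. Whether both libraries of a group come from separate cultures, animals or lines is not stated. The p-values therefore cover the spread among these libraries alone, and that spread may be technical. Of the 17091 features in the deposited table, 12107 reached a normalised read count of 10 in 2 or more of the 8 libraries and were tested, and 4984 did not.

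Cells sense oxygen through the HIF transcription factors. In air, prolyl hydroxylases tag the HIF alpha subunit for destruction by the VHL ubiquitin ligase. When oxygen is short the subunit persists, pairs with ARNT and binds hypoxia response elements, DNA sites with the core letters ACGTG or GCGTG. Its target genes are known to move cells towards glycolysis and lactate export, to remove or refit mitochondria, to modify collagen and to call in blood vessels. miR-210 is a microRNA whose own gene is a HIF target. It is known for acting on the messenger RNAs of iron-sulfur cluster assembly and mitochondrial respiration.

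Mir210, the gene named in the genotype, lies at chr7:141221384-141221493 on the minus strand (GRCm38, RefSeq). Its mature strands are shown because the KO label and the target sites described further on turn on them, with bases 2 to 8, the seed that pairs with a target, in capitals:
mmu-miR-210-3p: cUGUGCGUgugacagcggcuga
mmu-miR-210-5p: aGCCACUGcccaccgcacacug
The 3p strand occupies chr7:141221407-141221428 and the 5p strand chr7:141221445-141221466. Mir210 was listed at 1, the lowest value in the table, in all 8 libraries, WT hypoxia included. Its value therefore does not check the KO label.

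Hypoxia raised 7 genes in KO fibroblasts, and all 7 belong to the known HIF programme: a lactate exporter, a carbonic anhydrase, a HIF prolyl hydroxylase, a mitophagy receptor, a pyruvate dehydrogenase kinase, an adenylate kinase and an ankyrin-repeat protein. They make up 0.0578% of the tested features (limma, adjusted p under 0.05 by Benjamini and Hochberg over all 12107), and 0 features, 0.0%, passed as lower. In the text below, values are the authors' normalised read counts, normoxia replicates 1 and 2 first and hypoxia replicates 1 and 2 after them. Fold changes are log2 differences of (value + 1), hypoxia minus normoxia, with the standard error (SE) of the fit, and so understate those of low genes.

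Slc16a3 encodes MCT4, the transporter by which glycolytic cells export lactate. It stood at 25 and 9 in normoxia and at 634 and 606 in hypoxia. Its log2 fold change of 5.27 ± 0.41 was the highest of all tested features (limma adjusted p = 7.1e-04). Both normoxia libraries lay near the floor of the measurement, an estimated 19 and 13.4 reads, and both hypoxia libraries more than an order of magnitude above it. Car9, a cell-surface carbonic anhydrase that helps to carry acid out of the cell, was at 12 and 15 in normoxia and at 260 and 265 in hypoxia (4.19 ± 0.38, limma adjusted p = 0.00173). The replicates of Car9 agreed closely at each oxygen level.

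Egln3, the prolyl hydroxylase PHD3 that feeds back on HIF, was at 24 and 23 in normoxia and at 367 and 344 in hypoxia (3.86 ± 0.30, limma adjusted p = 7.1e-04). Bnip3, an outer-membrane receptor that marks mitochondria for autophagy, was at 40 and 32 and then at 370 and 302 (3.19 ± 0.26, limma adjusted p = 7.8e-04). Pdk1, the kinase that switches off pyruvate dehydrogenase and so keeps pyruvate from the mitochondria, was the most abundant of the 7, at 331 and 170 in normoxia and at 1854 and 2155 in hypoxia. Its log2 fold change was 3.07 ± 0.32 (limma adjusted p = 0.00445). In normoxia its replicates differed from each other more than those of Egln3 or Car9 did.

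Ankrd37, an ankyrin-repeat protein known mainly as a HIF target, was at 50 and 26 in normoxia and at 318 and 273 in hypoxia (2.99 ± 0.33, limma adjusted p = 0.00644). Ak4, a mitochondrial adenylate kinase, was at 86 and 101 in normoxia and at 528 and 582 in hypoxia (2.56 ± 0.26, limma adjusted p = 0.0037). For each of the 7 genes both hypoxia values lay far above both normoxia values.

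**Figure D1:**
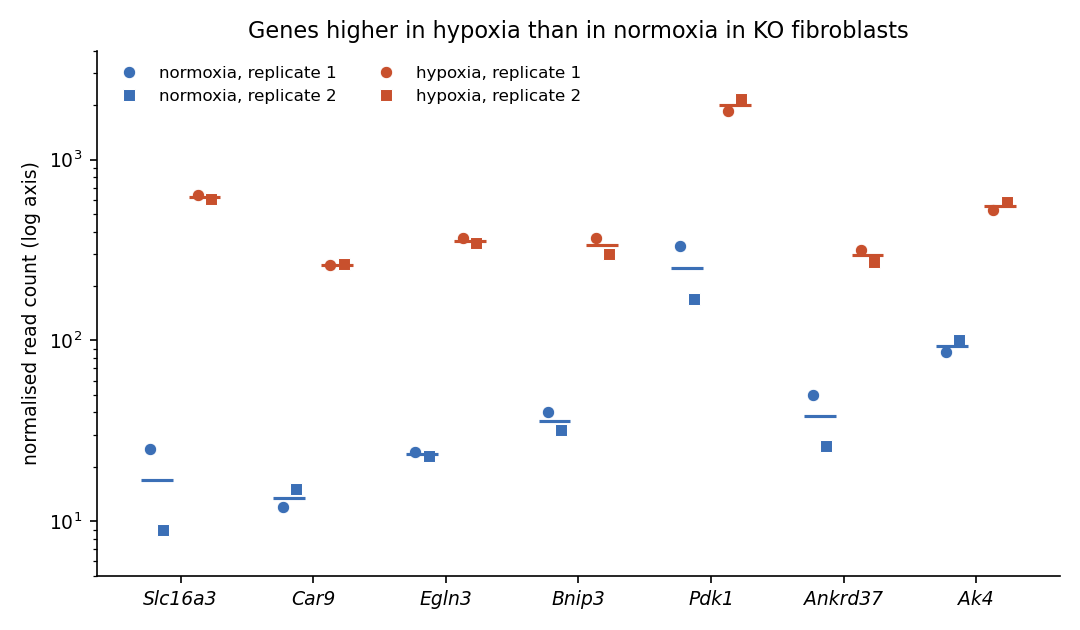
Normalised read counts (log axis) of the 7 genes higher in hypoxia in KO fibroblasts, 1 point per library, with circles for replicate 1, squares for replicate 2 and a line at the mean of the 2 libraries of a group. In each gene the hypoxia points lie clear of the normoxia points, from Pdk1, at 331 and 170 against 1854 and 2155, down to Car9, at 12 and 15 against 260 and 265.

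In the mouse GENCODE M21 annotation (GRCm38) all 7 are protein-coding genes. They lie apart from each other, with Slc16a3 at chr11:120948480-120960868, Egln3 at chr12:54178981-54203860, Bnip3 at chr7:138890836-138909519, Ankrd37 at chr8:45996902-46005707 and Pdk1 at chr2:71873224-71903858. Car9, at chr4:43506966-43513729, and Ak4, at chr4:101419277-101466995, share a chromosome but not a neighbourhood. The build of the authors' own alignment is not given in the sources used here. Their promoters, the 250 bases before to 50 bases after a RefSeq gene start (GRCm38.p6), were read for the core letters of the hypoxia response element, ACGTG and GCGTG, on both strands. All 7 matched, with 11 promoters because Ak4 and Pdk1 have several starts. A core was present in 10 of the 11, but some Ak4 windows overlap, so the same cores are counted more than once. Of the 12114 promoters of tested features 62.3% hold one (25.5% ACGTG, 50.9% GCGTG), so a match is common and describes letters, not binding. The promoters of 4 genes are printed because they carry the cores near the start or in a cluster, with each core, or its reverse complement, in capitals:
Slc16a3, chr11:120948817-120949116, plus strand: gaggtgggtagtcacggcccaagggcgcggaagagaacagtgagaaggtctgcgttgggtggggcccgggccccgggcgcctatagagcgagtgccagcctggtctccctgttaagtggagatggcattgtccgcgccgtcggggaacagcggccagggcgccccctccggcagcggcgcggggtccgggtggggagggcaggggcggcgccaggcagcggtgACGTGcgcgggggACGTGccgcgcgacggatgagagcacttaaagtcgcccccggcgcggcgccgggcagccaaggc
Bnip3, chr7:138909457-138909756, minus strand: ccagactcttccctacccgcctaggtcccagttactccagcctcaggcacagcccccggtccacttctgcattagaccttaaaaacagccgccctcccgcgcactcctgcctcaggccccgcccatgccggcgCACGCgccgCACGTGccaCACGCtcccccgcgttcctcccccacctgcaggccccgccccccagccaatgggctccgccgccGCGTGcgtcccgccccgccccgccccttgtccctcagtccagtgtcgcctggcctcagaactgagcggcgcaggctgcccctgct
Car9, chr4:43506776-43507075, plus strand: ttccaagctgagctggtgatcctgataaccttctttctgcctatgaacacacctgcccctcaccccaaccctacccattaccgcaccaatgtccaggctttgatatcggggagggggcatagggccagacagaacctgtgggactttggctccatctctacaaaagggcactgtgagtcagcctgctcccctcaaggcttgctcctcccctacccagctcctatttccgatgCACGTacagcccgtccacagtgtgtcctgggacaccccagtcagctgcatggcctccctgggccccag
Ankrd37, chr8:45999801-46000100, minus strand: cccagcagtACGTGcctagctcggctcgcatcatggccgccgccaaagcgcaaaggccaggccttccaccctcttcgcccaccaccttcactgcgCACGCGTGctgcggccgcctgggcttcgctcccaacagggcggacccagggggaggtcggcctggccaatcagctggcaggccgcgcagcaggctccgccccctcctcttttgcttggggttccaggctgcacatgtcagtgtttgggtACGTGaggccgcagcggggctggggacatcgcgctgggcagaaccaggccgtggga

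Slc16a3 has a pair of ACGTG cores that begin 27 and 14 bases before the start. Bnip3 has 5 matches between 117 and 35 bases before it, where the palindrome CACGTG counts on both strands. Car9 has a single core, on the other strand, that begins 18 bases before the start. Among the 12 features that led the higher side without passing the test, 8 of 11 matched promoters hold a core, and among the 12 that led the lower side 9 of 10 do.

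The other features did not pass the test. Over all tested features the 5th and 95th percentiles of the log2 fold change were -0.55 and 0.73, and the median was 0.01. A log2 fold change of at least 1 was seen for 275 features, in 220 of which both hypoxia values lay above both normoxia values. A log2 fold change of -1 or less was seen for 73, in 58 of which both hypoxia values lay below. By that criterion alone, groups that do not overlap, 1924 features (15.9%) were higher and 1972 (16.3%) lower. In a random order of 2 libraries against 2, groups lie apart in either direction with a probability of 0.333. These shares are therefore no count of features that respond to oxygen. At an unadjusted limma p under 0.05 there were 276 higher (2.28%) and 111 lower (0.917%), 387 together, fewer than the 605 that 5% of the tested features make. The call rests on the spread shared by all 4 groups, since an exact permutation test of 2 libraries against 2 cannot go below p = 0.333. It also depends on single libraries: without KO normoxia replicate 2 the fit called 561 higher and 199 lower, and without KO hypoxia replicate 2 it called 4 higher, losing Ak4, Ankrd37 and Pdk1.

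**Figure D2:**
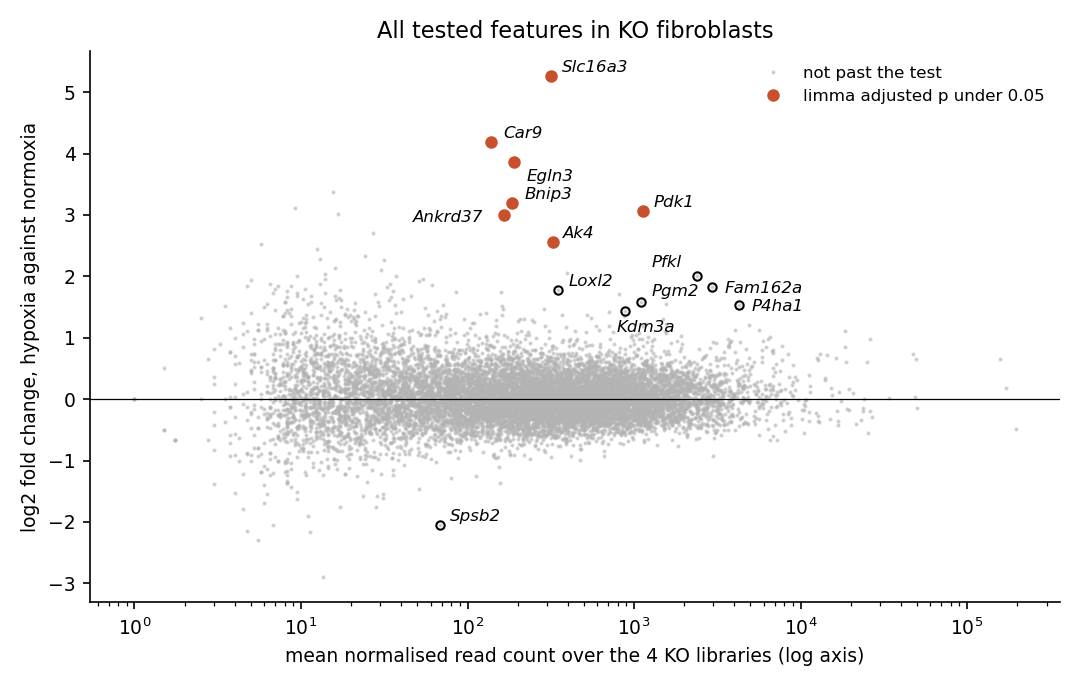
Log2 fold change in KO fibroblasts against the mean normalised read count over the 4 KO libraries (log axis), 1 point per tested feature. The 7 genes past the test (filled) run from Ak4 at 2.56 to Slc16a3 at 5.27, and open circles mark 7 of the named genes that did not pass, among them Pfkl at 2.01 and Spsb2 at -2.05.

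KO normoxia replicate 1 stands apart from the other KO libraries. Its correlation with them across genes was 0.951 to 0.954, and theirs with each other 0.978 to 0.988. Levels were also set against each gene's mean over all 8 libraries. On that scale KO normoxia replicate 1 was lower for longer protein-coding transcripts (-0.21 log2 per doubling of length). The other KO libraries were higher for them (0.07 to 0.16). Depth, estimated from the steps between low values, was 6.35 M and 11.8 M assigned reads in normoxia and 6.27 M and 10.7 M in hypoxia. Genes for small RNAs took 7.36% and 2.79% of the total in normoxia and 11.5% and 3.57% in hypoxia. Of 14 fibroblast markers, 13 were at 10 or more in all 4 KO libraries, with Lum at 4 or less, and their summed value was 92217 to 110455. Summed markers of macrophages (22 to 32), endothelium (20 to 38), keratinocytes (54 to 69), Schwann cells and melanocytes (107 to 119) and adipocytes (179 to 225, nearly all Pparg) stayed low. These sums cover only the markers that are listed. They were 6 of 8 for macrophages, 6 of 8 for endothelium and 8 of 8 for keratinocytes. For Schwann cells and melanocytes they were 6 of 9, and for adipocytes 3 of 6. Krt5, Pecam1, Itgam and Cidec were at 1 in every KO library. Muscle markers, 4 of 7 listed, summed to 434 and 520 in normoxia and to 702 and 704 in hypoxia, nearly all of it Acta1. In bulk RNA, fewer cells of a type and less RNA per cell cannot be told apart.

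The oxygen sensors split 3 ways. Egln3 rose, as given above. Egln1, the main prolyl hydroxylase PHD2, was at 620 and 721 in normoxia and at 1379 and 1383 in hypoxia (1.05 ± 0.21, limma adjusted p = 0.217). Egln2, the prolyl hydroxylase PHD1, went the other way, with 736 and 368 against 305 and 312 (-0.75 ± 0.30, limma adjusted p = 0.916), and most of that distance rested on normoxia replicate 1 (-0.25 without it). Per kilobase of a gene's merged annotated exons, mean levels in normoxia were 187 for Egln1, 250 for Egln2 and 8.83 for Egln3, and in hypoxia 384, 140 and 134. Egln3 thus moved from far below Egln2 to about its level. Close ranks on this scale, here and below, depend on the annotated length and on the length trends of the libraries. The messages of the HIF subunits themselves differed little: Hif1a was at 1280 and 1842 against 1756 and 1735. Epas1, which encodes HIF-2 alpha, was near the floor, at 3 and 9 against 21 and 10.

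Of the 9 tested members of this list 1 passed the test, 3 were higher and 2 lower with groups apart. The counts of this kind given for each list below stand against 15.9% higher and 16.3% lower over all tested features. The median of the list was 0.07, and -0.0019 to 0.17 with 1 KO library left out. The remaining members of the families below, and other list members outside the naming rule, were chosen after their values were seen. The lists themselves were chosen with earlier results of these data known. An excess of a list over the shares of all features is therefore not independent of the data.

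The genes of glucose uptake and upper glycolysis were mostly higher in hypoxia. Of 12 tested members, 8 had both hypoxia values above both normoxia values, 0 had them below and 0 passed the test (median 0.66, all features 0.01). Pfkl, the liver-type phosphofructokinase that commits sugar to glycolysis, was at 1315 and 672 in normoxia and at 3695 and 3892 in hypoxia (2.01 ± 0.31, limma adjusted p = 0.0872). Pfkp, the platelet type, was at 886 and 582 against 1340 and 1494, and Pfkm, the muscle type, at 463 and 259 against 280 and 299. Only the muscle type had overlapping groups among these 3. Pfkfb3, which makes the activator of phosphofructokinase, was at 51 and 100 against 244 and 242 (1.75 ± 0.31, limma adjusted p = 0.203), while the groups of Pfkfb1, Pfkfb2 and Pfkfb4 overlapped.

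Slc2a1, the glucose transporter GLUT1, was at 862 and 872 in normoxia and at 2188 and 2082 in hypoxia (1.30 ± 0.27, limma adjusted p = 0.262). Slc2a3, the transporter GLUT3, stayed low throughout, at 18 and 17 against 22 and 21. Hk2, the inducible hexokinase, was at 239 and 410 against 730 and 835 (1.32 ± 0.27, limma adjusted p = 0.259), and Hk1, the constitutive one, at 872 and 640 against 980 and 1065. Per kilobase, Hk1 remained the more abundant, with means of 156 and 211 against 57.8 and 139 for Hk2.

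In lower glycolysis 8 of 11 tested members were higher with groups apart and 1, Ldhb, was lower. None passed the test, 5 had an unadjusted limma p under 0.05, and the median was 0.98. Pgk1, phosphoglycerate kinase, was at 385 and 210 in normoxia and at 803 and 679 in hypoxia (1.37 ± 0.29, limma adjusted p = 0.262). Tpi1, triosephosphate isomerase, was at 4944 and 2386 against 7590 and 7455 (1.13 ± 0.34). Aldoa, aldolase A, was at 5975 and 2995 against 8929 and 8187 (1.01 ± 0.33). The 2 normoxia replicates of these enzymes lay far apart, with replicate 1 the higher. The list's median was 1.49 without replicate 1 and 0.49 without replicate 2.

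Ldha, the lactate dehydrogenase subunit that favours lactate, was at 6298 and 2807 in normoxia and at 8609 and 7939 in hypoxia. Ldhb, the subunit that favours pyruvate, was at 71 and 40 against 39 and 30. Per kilobase the means were 2402 and 4366 for Ldha and 42.6 and 26.5 for Ldhb. Pkm, pyruvate kinase, had overlapping groups, 15083 and 6821 against 11648 and 12008. Gapdh and Pgam1 were listed at 46 or less in every KO library. Both have near-identical copies in the genome that can split or lose reads, so their levels are uncertain.

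Lactate export and control of pH held 2 of the 7 genes past the test, Slc16a3 and Car9. Of the 8 tested members 6 were higher with groups apart and 0 lower, and the median was 0.65 (1.03 without normoxia replicate 2). Slc16a1, the widely expressed lactate transporter MCT1, did not share in this, at 1400 and 1531 in normoxia and at 1439 and 1517 in hypoxia (0.01 ± 0.22). Per kilobase, Slc16a3 went from 3.82 to 139 while Slc16a1 was at 331 and 334. Bsg, the chaperone basigin that both transporters need, was at 5587 and 3815 against 7308 and 6693. Slc4a4, a bicarbonate cotransporter, was at 45 and 92 against 162 and 177 (1.38 ± 0.38, limma adjusted p = 0.916).

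Around pyruvate dehydrogenase 1 of the 11 tested members passed the test, Pdk1. Pdk3, a kinase of the same family, was at 642 and 551 in normoxia and at 656 and 694 in hypoxia. Pdk2 and Pdk4 had overlapping groups and stayed low, at 7 to 21 and at 41 to 78. Per kilobase, Pdk3 exceeded Pdk1 in normoxia (282 against 48.3), and Pdk1 exceeded Pdk3 in hypoxia (387 against 319). Pdhx, the subunit that tethers the complex, was at 348 and 344 against 230 and 279 (-0.45 ± 0.22, limma adjusted p = 0.916). The list had 2 members higher and 3 lower with groups apart, and a median of 0.01 (-0.11 to 0.07 with 1 KO library left out).

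**Figure D3:**
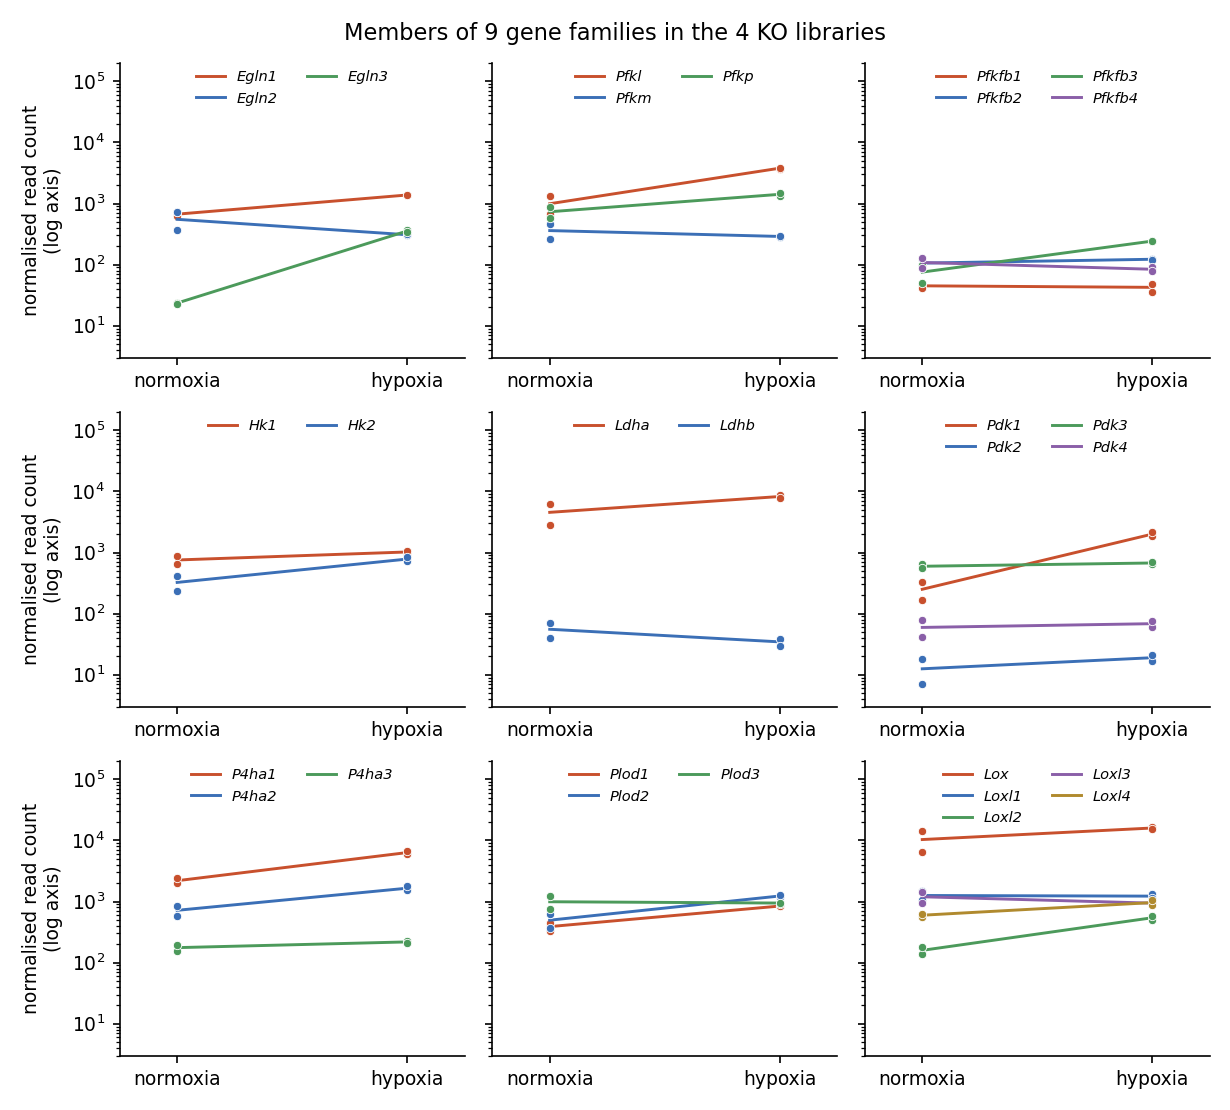
Normalised read counts (log axis) in the 4 KO libraries for 9 gene families, with points for single libraries and lines joining the mean of the 2 normoxia to the mean of the 2 hypoxia libraries. Within a family the members part: Egln3 goes from 24 and 23 to 367 and 344 while Egln2 goes from 736 and 368 to 305 and 312, and Pdk1 crosses Pdk3.

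Glycogen metabolism, by which cells store glucose, had 6 of 12 tested members higher with groups apart and 0 lower (median 0.52), with 0 past the test. Pgm2, a phosphoglucomutase, was at 676 and 443 in normoxia and at 1632 and 1634 in hypoxia (1.58 ± 0.26, limma adjusted p = 0.107). Gys1, glycogen synthase, was at 280 and 227 against 480 and 486 (0.94 ± 0.21, limma adjusted p = 0.396). Stbd1, a glycogen-binding protein, was at 167 and 189 against 321 and 303. Pygl, the liver-type phosphorylase that breaks glycogen down, was at 20 and 12 against 58 and 52, so that members for making and for breaking down glycogen lay on the same side.

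Among mitophagy and autophagy genes, 1 of 15 tested members passed the test, Bnip3. Bnip3l, its close relative NIX, was at 884 and 894 in normoxia and at 1757 and 1766 in hypoxia (0.99 ± 0.23, limma adjusted p = 0.396). Per kilobase Bnip3l remained above Bnip3, with means of 271 and 537 against 19.4 and 181. No other member was higher with groups apart, 2 were lower, and the median was 0.01 (-0.05 to 0.12 with 1 KO library left out). Fundc1, another mitophagy receptor, was at 396 and 385 against 381 and 406. Sqstm1, the autophagy adaptor p62, was at 6661 and 4007 against 4007 and 3967.

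The proteins known to refit mitochondria to low oxygen had the highest median of the lists, 1.47 over 9 tested members, with 6 higher and 0 lower and groups apart. Ak4 was the 1 that passed. Fam162a, a mitochondrial protein known from HIF-dependent cell death, was at 1466 and 1137 in normoxia and at 4811 and 4356 in hypoxia (1.83 ± 0.38, limma adjusted p = 0.258). Higd1a, which acts on respiratory supercomplexes, was at 162 and 144 against 399 and 454 (1.47 ± 0.28, limma adjusted p = 0.217). Mgarp, at 4 and 2 against 32 and 29, and Ndufa4l2, at 3 and 1 against 35 and 23, were near the floor in normoxia. Their log2 fold changes of 3.02 and 3.38 rest on few reads, and with a minimum of 50 in 2 libraries the median of the members left was 0.31.

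**Figure D4:**
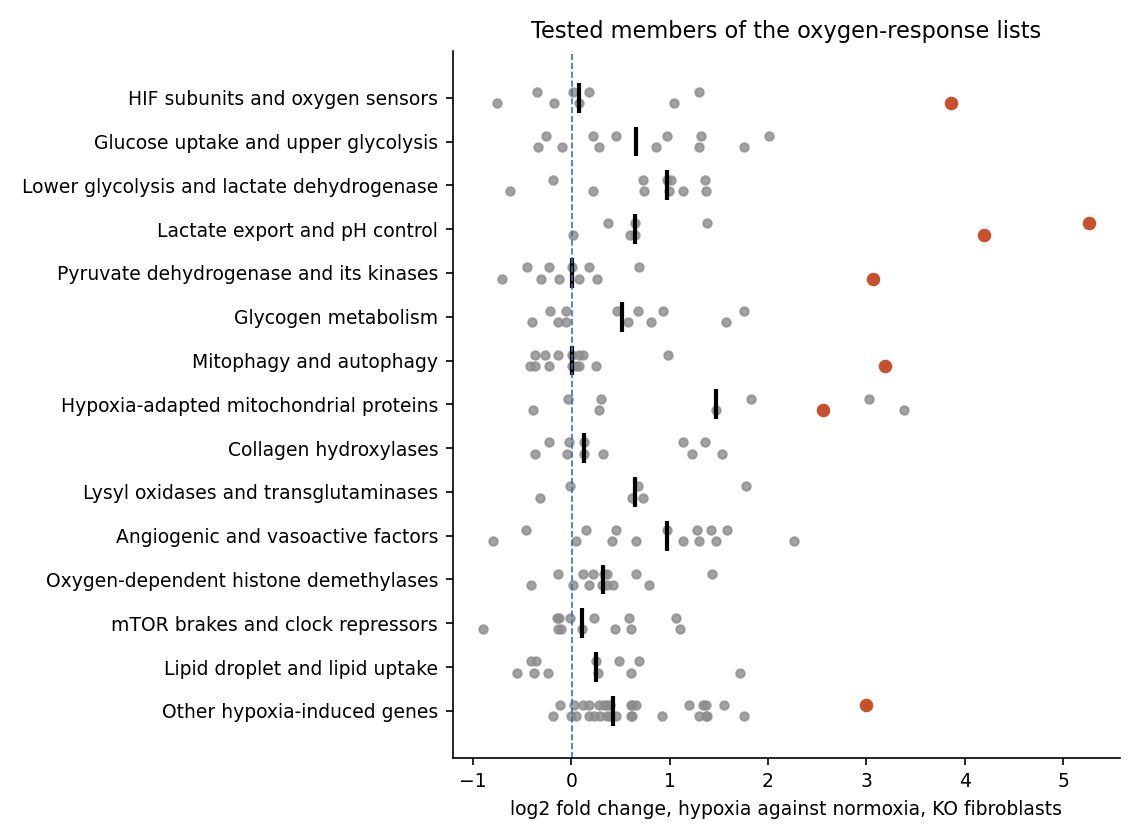
Log2 fold changes of the tested members of 15 lists of the oxygen response in KO fibroblasts, 1 point per gene, filled in colour where the limma adjusted p is under 0.05, with a bar at each list's median and a dashed line at the median of all features (0.01). Single members lie far to the right of their lists, among them Slc16a3 at 5.27 and Egln3 at 3.86, while list medians run from 0.01 to 1.47.

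Enzymes that hydroxylate collagen use oxygen as a substrate, and their genes split within the list. Of 11 tested members 5 were higher with groups apart, 0 lower and 0 past the test (median 0.13, and 0.26 to 0.34 with 1 KO library left out). P4ha1, the catalytic subunit of collagen prolyl hydroxylase, was at 1985 and 2406 in normoxia and at 6020 and 6663 in hypoxia. Its log2 fold change was 1.53 ± 0.23 and its limma adjusted p, 0.0853, was the smallest outside the 7 genes. P4ha2 was at 852 and 586 against 1524 and 1786 (1.22 ± 0.27, limma adjusted p = 0.361), and P4ha3 at 157 and 195 against 224 and 213. Per kilobase the order P4ha1, P4ha2, P4ha3 was the same at both oxygen levels, at 534, 307 and 74.5 in normoxia and at 1541, 708 and 92.6 in hypoxia.

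Plod2, the lysyl hydroxylase of the telopeptides where crosslinks form, was at 372 and 619 in normoxia and at 1200 and 1267 in hypoxia (1.36 ± 0.26, limma adjusted p = 0.217). Plod1 was at 451 and 327 against 857 and 831 (1.13 ± 0.24, limma adjusted p = 0.262), whereas the groups of Plod3 overlapped, at 1237 and 749 against 925 and 965. P4hb, the partner subunit and disulfide isomerase, also overlapped, at 16928 and 10252 against 10635 and 11838.

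Lysyl oxidases, the copper enzymes that crosslink collagen and elastin, were led by Loxl2. It was at 137 and 181 in normoxia and at 498 and 588 in hypoxia (1.77 ± 0.29, limma adjusted p = 0.107). Lox, by far the most abundant member, was at 6565 and 14144 against 16459 and 15537. Its log2 fold change was 0.73 ± 0.40 with all libraries and 0.18 without normoxia replicate 1. Loxl4 was at 568 and 627 against 869 and 1056, the crosslinking enzyme Tgm2 at 587 and 796 against 1015 and 1079, and Loxl3 at 1436 and 960 against 941 and 943. The groups of Loxl1 overlapped. The median of the 6 tested members was 0.65, and 0.31 without normoxia replicate 1.

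Of 15 tested angiogenic and vasoactive factors, 11 were higher with groups apart, 1 was lower and 0 passed the test, with a median of 0.97 (0.58 without normoxia replicate 1). Vegfa, the main angiogenic growth factor, was at 294 and 491 in normoxia and at 919 and 1131 in hypoxia (1.42 ± 0.28, limma adjusted p = 0.217). Adm, the vasodilator peptide adrenomedullin, was at 88 and 84 against 259 and 223 (1.47 ± 0.28, limma adjusted p = 0.217). Apln, the peptide apelin, was at 152 and 104 against 312 and 310 (1.30 ± 0.26, limma adjusted p = 0.217). Edn2, an endothelin, was low in normoxia, at 11 and 9, and at 65 and 41 in hypoxia (2.26 ± 0.44, limma adjusted p = 0.217). The exception was Hmox1, heme oxygenase, at 1319 and 1468 against 1026 and 998 (-0.46 ± 0.23, limma adjusted p = 0.916).

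Histone demethylases of the Jumonji class also need oxygen. Kdm3a, a known HIF target that removes methyl groups from lysine 9 of histone H3, led the 14 tested members, at 405 and 554 in normoxia and at 1199 and 1369 in hypoxia (1.43 ± 0.23, limma adjusted p = 0.0943). Kdm4b was at 215 and 125 against 292 and 277, and Kdm6b at 38 and 42 against 57 and 71. In all, 6 members were higher and 1 lower with groups apart (median 0.32, and 0.06 without normoxia replicate 1). Kdm3a lay above all other members of the list. None of the 14 passed the test.

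Among brakes on mTOR and repressors of the clock, 5 of 13 tested members were higher and 2 lower with groups apart, and 0 passed the test. The median was 0.11, with 0.37 without normoxia replicate 1 and -0.17 without replicate 2. Bhlhe40, a repressor of the circadian clock, was at 260 and 299 in normoxia and at 586 and 618 in hypoxia (1.11 ± 0.21, limma adjusted p = 0.217). Mxi1, an antagonist of Myc, was at 90 and 107 against 222 and 191 (1.06 ± 0.26, limma adjusted p = 0.582). Ddit4, the mTOR brake REDD1, was at 338 and 203 against 413 and 376. Of 11 tested genes of lipid uptake and lipid droplets, 5 were higher and 1 lower, and 0 passed. Their median was 0.25, with 0.30 without normoxia replicate 1 and -0.02 without replicate 2. Vldlr, the lipoprotein receptor, was at 220 and 607 against 1166 and 1240 (1.72 ± 0.39, limma adjusted p = 0.361), with 0.99 without normoxia replicate 1.

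A further 32 tested genes known to be induced by hypoxia had 21 higher and 0 lower with groups apart, and a median of 0.42 (0.73 without normoxia replicate 2). Ankrd37 was the 1 past the test. Ero1l, the oxidase that makes disulfide bonds in the endoplasmic reticulum, was at 547 and 1098 in normoxia and at 2251 and 2299 in hypoxia (1.55 ± 0.31, limma adjusted p = 0.217). Mif, a cytokine, was at 99 and 80 against 263 and 204 (1.37 ± 0.26, limma adjusted p = 0.217). Ndrg1, a stress-response gene, was at 411 and 312 against 858 and 786 (1.20 ± 0.25, limma adjusted p = 0.262). Plekha2, an adaptor that binds membrane lipids and is in none of the lists, was at 229 and 251 against 515 and 575 (1.18 ± 0.22, limma adjusted p = 0.217).

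On the lower side 0 features passed the test in limma, and 111 (0.917%) had an unadjusted p under 0.05. The smallest adjusted p was 0.217, for Spsb2, which encodes an adaptor of an E3 ubiquitin ligase. It was at 148 and 75 in normoxia and at 29 and 21 in hypoxia (-2.05 ± 0.40), and was named after its value was seen. The features that led the lower side among features at or above the median level all had a limma adjusted p of 0.916. Among them Pop1, a protein of RNase P and RNase MRP, was at 1662 and 1788 in normoxia and at 1036 and 1022 in hypoxia (-0.74 ± 0.27). Polr1e, a subunit of RNA polymerase I, was at 318 and 322 against 215 and 211 (-0.59 ± 0.22). Sat1, which breaks down polyamines, was at 964 and 785 against 529 and 513 (-0.74 ± 0.27), and Pycrl, an enzyme of proline synthesis, at 736 and 482 against 352 and 328 (-0.81 ± 0.26). In Pop1 and Polr1e the normoxia replicates lay close together, whereas in Pycrl replicate 1 was the higher.

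Gfer, an oxidase of the mitochondrial intermembrane space, was at 669 and 524 in normoxia and at 415 and 382 in hypoxia. Calr, the chaperone calreticulin, was at 9595 and 6573 against 4984 and 5048 (-0.66 ± 0.26). Rhod, a small GTPase, was at 380 and 266 against 219 and 159, and Tmem97, a regulator of cholesterol transport, at 485 and 326 against 220 and 262. Mxra7 was at 394 and 248 against 195 and 192, and Msto1, a protein of mitochondrial shape, at 862 and 476 against 393 and 396. In these last genes the normoxia value of replicate 1 lay well above that of replicate 2.

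Cholesterol biosynthesis, which uses oxygen at several steps, was lower as a list: 0 of 22 tested members had a positive log2 fold change, and 12 were lower with groups apart against 16.3% of all features. None passed the test, 3 had an unadjusted limma p under 0.05, and the median was -0.48. Cyp51, the oxygen-dependent lanosterol demethylase, was at 2953 and 1763 in normoxia and at 1350 and 1322 in hypoxia (-0.77 ± 0.27). Mvd, an enzyme of the mevalonate pathway, was at 378 and 98 against 69 and 80 (-1.36 ± 0.50), and Lss, the cyclase that makes lanosterol, at 872 and 283 against 253 and 267. The excess of normoxia replicate 1 was large in these genes, and without it the list's median was -0.10 (-0.88 without replicate 2) and the log2 fold change of Cyp51 -0.40. Fatty acid synthesis had 4 of 13 tested members lower, 0 higher, and a median of -0.24 (-0.57 without normoxia replicate 2).

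Antioxidant genes under NRF2 were lower as a list with and without that library. Of 26 tested members 13 were lower with groups apart, 0 higher and 0 past the test, with a median of -0.32, and -0.35 without normoxia replicate 1. Srxn1, which repairs peroxiredoxins, was at 1015 and 951 in normoxia and at 612 and 735 in hypoxia (-0.55 ± 0.25). Taldo1, transaldolase of the pentose phosphate pathway, was at 1542 and 1449 against 1149 and 1040 (-0.45 ± 0.22). G6pdx, the entry enzyme of that pathway, was at 1247 and 894 against 775 and 729. Tkt, transketolase, was the exception, at 6033 and 2102 against 1880 and 1865, with a log2 fold change of -0.93 with normoxia replicate 1 and of -0.17 without it. All 4 had a limma adjusted p of 0.916.

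Genes of respiration had slightly negative medians. Of 36 tested subunits of complex I, 8 were lower and 1 higher with groups apart (median -0.20), and of 37 subunits of complexes II to V, 7 were lower and 0 higher (median -0.25). These shares of lower members, 22.2% and 18.9%, were near the 16.3% of all features. Without normoxia replicate 1 the medians were 0.05 and 0.11, so the sign of both rests on that library. They were -0.46 and -0.63 without normoxia replicate 2, and -0.04 and -0.09 with the trend with transcript length removed. Ndufs8, an iron-sulfur subunit of complex I, was at 889 and 507 in normoxia and at 471 and 394 in hypoxia (-0.64 ± 0.29). Sdhb, the iron-sulfur subunit of complex II, was at 1952 and 1185 against 1162 and 962 (-0.52 ± 0.26). Cytosolic ribosomal proteins (44 tested, median -0.19) and replication-dependent histones (33 tested, median -0.29), short transcripts with near-identical copies whose counts are uncertain, had the same pattern, with medians of 0.10 and 0.29 without that library and of -0.57 and -0.90 without normoxia replicate 2.

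TCA cycle enzymes, which oxidise acetyl-CoA, all lay below 0: 0 of 18 tested members had a positive log2 fold change, and 12 were lower with groups apart (median -0.29, -0.11 without normoxia replicate 1 and -0.46 without replicate 2). None passed the test or had an unadjusted limma p under 0.05. Suclg1, a subunit of succinyl-CoA synthetase, was at 1328 and 947 in normoxia and at 846 and 823 in hypoxia (-0.43 ± 0.23). Aco1, the cytosolic aconitase that doubles as an iron sensor, was at 1237 and 929 against 796 and 838 (-0.39 ± 0.22). Idh2 was at 1514 and 786 against 734 and 764, again with normoxia replicate 1 far above the rest.

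**Figure D5:**
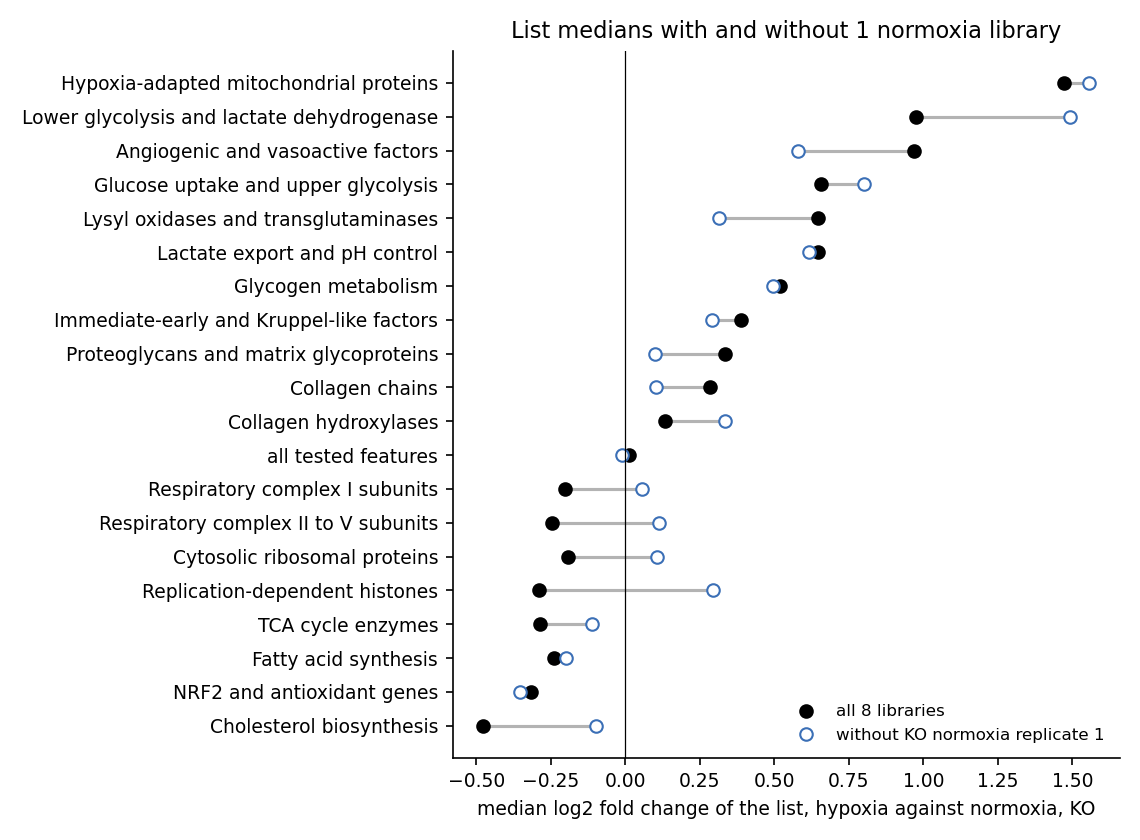
Median log2 fold change in KO fibroblasts for 19 lists and for all tested features, with all 8 libraries (filled) and without KO normoxia replicate 1 (open). Lower glycolysis goes from 0.98 to 1.49 and the lysyl oxidases from 0.65 to 0.31, whereas cholesterol biosynthesis goes from -0.48 to -0.10 and the respiratory, ribosomal and histone lists change sign.

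Matrix genes were higher as lists, in part through the same library. Of 22 tested collagen chains 10 were higher with groups apart, 0 lower and 0 past the test (median 0.28, 0.10 without normoxia replicate 1 and 0.45 without replicate 2). Col5a1 was at 1005 and 1040 in normoxia and at 1465 and 1355 in hypoxia (0.46 ± 0.22), and Col1a1, the main collagen of skin, at 5157 and 6111 against 8590 and 7428 (0.51 ± 0.29). Col6a3 was at 1588 and 2596 against 3267 and 3416. Of 26 tested proteoglycans and glycoproteins 12 were higher and 4 lower (median 0.33, and 0.10 without that library). Fn1, fibronectin, was at 11176 and 26178 against 35937 and 31319 (0.97 ± 0.42, and 0.36 without it), and Hspg2, perlecan, at 1755 and 3666 against 5433 and 4299. All of these had a limma adjusted p of 0.916.

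Among immediate-early and Kruppel-like factors, 12 of 19 tested members were higher and 1 lower with groups apart (median 0.39, and 0.29 without normoxia replicate 1). Klf2 was at 32 and 46 in normoxia and at 101 and 98 in hypoxia (1.35 ± 0.35, limma adjusted p = 0.736). Klf4 was at 82 and 187 against 258 and 265 (1.07 ± 0.36, limma adjusted p = 0.916). Under ATF4 and the unfolded-protein response, 4 of 25 tested members were higher and 8 lower (median -0.02, and -0.16 to 0.0034 with 1 KO library left out). Trib3, a pseudokinase induced by stress, was at 154 and 204 against 302 and 285 (0.72 ± 0.23), on the opposite side from the chaperones Calr and Pdia6, which was at 3993 and 3133 against 2466 and 2543. Vcam1, an adhesion molecule under NF-kB, was at 487 and 445 against 332 and 319 (-0.52 ± 0.21).

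Cell-cycle lists lay near the centre. S phase and DNA replication had 2 of 28 tested members higher and 7 lower with groups apart (median -0.06, and -0.16 without normoxia replicate 2), and G2/M had 3 of 27 higher and 4 lower (median 0.15, -0.04 without normoxia replicate 1 and 0.30 without replicate 2). Of 18 tested members of the p53 list 5 were higher and 5 lower (median -0.18, and -0.02 without normoxia replicate 1). Ccng1, a p53 target, was at 3965 and 3969 in normoxia and at 2946 and 2987 in hypoxia (-0.42 ± 0.21, limma adjusted p = 0.916). Its 2 replicates agreed at each oxygen level, and the log2 fold change without normoxia replicate 1 was also -0.42.

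Genes reported as miR-210 targets showed no common direction in KO cells. Of 27 tested members 6 were higher and 6 lower with groups apart, 0 passed the test, and the median was -0.05. These counts are each 22.2% of the list, beside 15.9% and 16.3% of all features. Iscu, the iron-sulfur cluster scaffold and best known target, was at 108 and 82 in normoxia and at 89 and 71 in hypoxia. Of 18 tested genes of iron-sulfur cluster assembly, a list that holds Iscu as well, 5 were lower and 0 higher (median -0.10, and -0.02 to -0.22 with 1 KO library left out). The exact match to the 3p seed, ACGCACA, was searched on the sense strand of each gene's longest annotated 3' untranslated region (GENCODE M21). Shorter or imperfect matches were not searched. Of the reported targets, 4 hold the exact match. Their sites are printed with the match in capitals, since they match the seed of the strand shown above:
Acvr1b, chr15:101212420-101212442, plus strand: attctccagactcaaACGCACAt
Fgfrl1, chr5:108706410-108706432, plus strand: cagccagattcacacACGCACAt
Gpd1l, chr9:114902218-114902240, minus strand: caactacagacacacACGCACAt
Gpd1l, chr9:114900799-114900821, minus strand: gtcgacctcagtgaaACGCACAc
Gpd1l, chr9:114900507-114900529, minus strand: agtcccacacctaaaACGCACAg
Kcmf1, chr6:72842293-72842315, minus strand: atccatgtgcctcctACGCACAa

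Acvr1b, an activin receptor, was at 127 and 117 in normoxia and at 172 and 174 in hypoxia (0.50 ± 0.26, limma adjusted p = 0.916). Gpd1l, an enzyme of glycerol phosphate metabolism with 3 sites, was at 266 and 254 against 201 and 188 (-0.42 ± 0.23, limma adjusted p = 0.916). Kcmf1, whose match is followed by an A, was at 1216 and 1160 against 1102 and 1086. The carriers of a site thus lay on both sides. Over all tested features, 402 of the 10778 with a matched 3' untranslated region hold the seed match, with a median log2 fold change of 0.09 in KO against 0.005 for all 10778. Of these 402, 73 were higher and 44 lower with groups apart (16.2% and 16.9% of the 10778 were). The 402 include 1 of the genes past the test, Pdk1. The KO median was -0.02 both for the 402 and for all 10778 without normoxia replicate 1. The untranslated regions of the 402 are longer, with a median of 2802 against 1224 bases. In WT the medians were -0.12 for the 402 and -0.03 for all 10778. The median difference of the responses, KO minus WT, was 0.24 for the 402 and 0.03 for all 10778. The part of single libraries and of length in this difference was not tested.

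The response of the KO cells was set beside that of the WT cells. The contrasts share no library, but both came from the same fit with a shared spread per gene. The calls in KO and in WT are therefore not independent. In WT 13 features were higher (0.107%) by the same test, and all 7 genes called in KO were among them, 100% of the KO and 53.8% of the WT calls. For the difference of the responses, KO minus WT, 0 features passed in limma (0.0%), with a smallest adjusted p of 0.857 and 380 features at an unadjusted p under 0.05. For the 7 genes the estimates ran from -0.66 for Ankrd37 (95% interval -1.71 to 0.39) to 0.58 for Slc16a3 (-0.69 to 1.86). The interval was narrowest for Ak4 and Bnip3, at -0.28 to 1.35 and -0.76 to 0.87, so a difference of 1 on the log2 scale lay inside the interval for Ak4 and outside that for Bnip3.

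The WT calls that were no KO calls were 6 genes: Fam162a, Pfkl, Higd1a, Kdm3a, Edn2 and Mgarp. Their differences were not past the test, and the intervals of all 6 include 0, from Mgarp (-1.42, interval -3.33 to 0.49) to Kdm3a (-0.11, interval -0.83 to 0.60). Loxl2 stood on the other side. In WT it was at 285 and 484 in normoxia and at 532 and 433 in hypoxia, with overlapping groups, and in KO the groups lay apart, as given above. The difference was 1.41 (95% interval 0.49 to 2.32), which failed the correction over all features (limma adjusted p = 0.857). Gfer, lower in KO hypoxia, was at 548 and 441 against 572 and 582 in WT, a difference of -0.80 (interval -1.51 to -0.09, limma adjusted p = 0.857).

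Among the lists, the median difference of the responses, KO minus WT, was -1.36 for replication-dependent histones and -0.64 for complex I. Without KO normoxia replicate 1 and WT hypoxia replicate 2, the library that stands apart among the WT ones, these came to -0.46 and -0.25. Collagen chains had a median difference of 0.56, of 0.45 without KO normoxia replicate 1 alone and of 0.56 without both libraries. No single chain passed the test of the difference. With the trend with transcript length removed, the median KO response of the chains was 0.10 instead of 0.28.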

How the data were processed

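SOLiD libraries were prepared from miRNeasy total RNA using a small RNA kit (New England Biolabs), per the labels' protocols. The deposited table holds 1 score per feature and library, the authors' normalised read counts in whole numbers with a floor of 1. Which aligner, counter, build, strand setting and scaling they used is not given in the sources used here. Depth was estimated from the value of 1 read (0.674 to 1.38). Rounding hides the reads, so no count model was run. From these values log2(value + 1) was fitted by limma 3.58.1 (R 4.3.3), with trend, to 4 groups over all 8 libraries (4 residual degrees of freedom, 10.2 after moderation), two-sided, adjusted over 12107 features. Groups came from the titles and genotype and treatment labels. On simulated KO hypoxia data (11978 features) the fit called 0 of 50 features at a 1.5-fold change and 9 of 50 at 2-fold. It called every one of 50 at both 4-fold and 8-fold, along with 2 unchanged features. Beyond counting noise, the simulation gave all features and libraries the same spread, with no library standing apart. Its shares therefore need not hold for the real libraries, where Pfkl, with a log2 fold change of 2.01, did not pass.

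The 47 gene lists (852 entries, 828 in the table) and the members were chosen with earlier results of these data known. Named genes are Mir210, those past the test, the 12 leading per direction at or above the median level with groups apart, and the 4 of smallest p per list; others are said to be chosen after their values were seen. Names came from the table, GENCODE M21 and RefSeq; 9539 tested features matched a promoter.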

Additional observations from a re-analysis of the deposited data

How the results depend on the processing

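The 7 genes stayed higher in all 22 alternatives. The number called was 6 to 8 with other pseudocounts, filters, rescalings, array weights or a robust prior, and 5 with no trend, 17 with the trend with transcript length removed and 2 with only the 4 KO libraries. A replicate block gave 11 higher, and a replicate block within genotype 54 higher and 3 lower; same-numbered KO libraries deviated together (correlation 0.229, WT 0.565), but nothing says that a number marks a shared culture. Leaving out 1 library gave 4 to 561 higher and 0 to 199 lower, the highest without KO normoxia replicate 2, where replicate 1 is assumed to vary like the other groups; the cause was not tested. Without KO normoxia replicate 1 and WT hypoxia replicate 2, a choice made after seeing the data, 7 were called, 6 of them the same (Ak4 lost, Pfkl added). The difference between genotypes gave 0 calls in every alternative run; with only the KO libraries it could not be fitted. Counts near 10 rest on about 10 reads.

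Of the 123 tested genes named here, 12, none of them called, changed sign in at least 1 alternative. After quantile normalization and upper-quartile rescaling the log2 fold changes were -0.0080 and -0.016 for Fgfrl1, -0.0036 and -0.021 for Fundc1, and -0.0097 and -0.018 for Slc16a1, and with the length trend removed -0.042 for Slc16a1 and 0.011 for Pfkfb1. Leaving out 1 library, they ran from -0.28 to 0.31 for Fgfrl1, -0.035 to 0.056 for Fundc1, -0.051 to 0.078 for Slc16a1, -0.31 to 0.13 for Pfkfb1, -0.024 to 1.71 for Gas5, -0.078 to 0.45 for Hif1a, -0.27 to 0.23 for Loxl1, -0.59 to 0.13 for P4hb, -0.19 to 0.72 for Pdk4, -0.68 to 0.16 for Pfkm, -0.35 to 0.79 for Pkm and -0.39 to 0.33 for Plod3.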

Other observations

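In the remaining lists of fibroblast function and signalling 0 members passed the limma test. Their counts with groups apart stand beside 15.9% higher and 16.3% lower over all features. Of 17 tested metalloproteinases and inhibitors 7 were higher and 1 lower with groups apart (median log2 fold change 0.17, and 0.11 to 0.31 with 1 KO library left out). Of 14 contractile genes 4 were higher and 1 lower (0.13, and 0.07 to 0.18), and of 11 genes of the IGF axis 3 were higher and 0 lower (0.10, and 0.04 to 0.13). TGF-beta ligands, receptors and Smads had 4 of 18 higher and 2 lower, with a median of 0.21 with all libraries and of -0.15 and 0.49 without KO normoxia replicate 1 and 2. Of 16 NF-kB and inflammatory genes 5 were higher and 4 lower (0.02, and -0.03 after quantile normalization), and of 15 interferon-stimulated genes 0 were higher and 5 lower (-0.25).

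Around Mir210, 7 neighbours were tested, with a median of 0.00. Eps8l2, a regulator of actin bundles, was at 232 and 170 in normoxia and at 302 and 276 in hypoxia (0.54 ± 0.24, limma adjusted p = 0.916). Rassf7, a Ras-association protein, was at 132 and 146 against 180 and 144. The noncoding RNA Gas5, which hosts small nucleolar RNAs, was at 15794 and 8697 in normoxia and at 38429 and 11528 in hypoxia, so hypoxia replicate 1 lay far above the other 3 KO libraries. Small RNA genes took 11.5% of the total in that library, and their part in the value of Gas5 was not tested. Meg3, an imprinted noncoding RNA, was at 80 and 106 against 150 and 180 (0.83 ± 0.32, limma adjusted p = 0.916).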
